A study of Homo sapiens with 8 samples.

Results

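The RNA of the ribosome and the RNA of the signal recognition particle (SRP) were examined for contact with LARP6, a protein of the La-related family that is best known as a binder of type I collagen mRNAs. The members were the 7SL genes RN7SL1 and RN7SL2, the 28S rRNA genes RNA28SN1 and RNA28SN3, and the 45S pre-rRNA gene RNA45SN2. A region was taken where its midpoint lay within the GRCh38 bounds of 1 of these 5 genes, which gave 128 of 178461 regions: 108 tested clusters in 4 libraries and 20 peaks in 2 lists made from both replicates of a condition. The genes were chosen by the deposited log2 folds and p-values of their clusters, so these values and the numbers of enriched clusters are given as a description.

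The libraries came from enhanced crosslinking and immunoprecipitation (eCLIP), in which ultraviolet light fixes protein to RNA, the RNA is trimmed, and what an anti-LARP6 antibody pulls down is sequenced and set against input RNA cut from the same size range. Wild-type human hepatic stellate cells, which make much of the collagen in a scarred liver, were crosslinked at 254 nm with 400 mJ/cm2. The TGFβ1 group had been given 5 ng/ml of the cytokine TGFβ1, and the control group carries the labels untreated and DMSO, which leave the use of a vehicle unclear. Each group had 2 LARP6 immunoprecipitates, whose inputs enter through the authors' fold over input. How long TGFβ1 was given and which line or donor the cells came from are not given in the sources used here, and no label says that replicates were separate cultures, so their spread may be technical. Of 12 stellate cell markers, 10 and 10 had a tested cluster in TGFβ1 replicates 1 and 2, and 9 and 10 in control replicates 1 and 2. DES and LRAT had no cluster in any library, and RELN had none in control replicate 1. Of 5 hepatocyte and 4 endothelial markers none had a cluster in any of the 4 libraries, while 1 of 4 macrophage markers (CD68) and 2 of 4 cholangiocyte markers (KRT7 and SOX9) had one in each library. The macrophage markers summed to 2 and 4 clusters in TGFβ1 replicates 1 and 2 and to 2 and 4 in control replicates 1 and 2. The cholangiocyte markers summed to 15 and 18 clusters in TGFβ1 replicates 1 and 2, against 2 and 3 in control replicates 1 and 2. Most of these lay in the keratin gene KRT7, with 13 and 17 in TGFβ1 replicates 1 and 2 and 1 and 2 in control replicates 1 and 2. None of the cholangiocyte marker clusters was enriched, KRT19 and EPCAM had no cluster, and the part of this difference in the results was not tested. In such bulk lysates, fewer cells of a type and less RNA per cell cannot be told apart.

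Ribosomal RNA is transcribed in the nucleolus as a long 45S precursor. From this precursor the 18S, 5.8S and 28S rRNAs are cut, while the external and internal spacers are removed. The 28S rRNA, with 5.8S and 5S, forms the large ribosomal subunit. The 7SL RNA is the scaffold of the SRP, which recognises signal peptides of secreted proteins such as procollagens and brings their ribosomes to the endoplasmic reticulum. Its 5′ and 3′ ends fold together into the Alu domain, and its middle forms the S domain that carries the signal peptide-binding subunit. Both RNAs are encoded by several near-identical gene copies, so a cluster at one copy may hold reads of another.

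Enriched clusters were those with a −log10 p and a log2 fold over input that both reached 3, as deposited by the authors. In the TGFβ1 libraries, 8 of 21 member clusters of replicate 1 and 16 of 34 of replicate 2 were enriched. In the control libraries, 7 of 26 member clusters of replicate 1 and 9 of 27 of replicate 2 were. Over all clusters the enriched share was 2.69% and 3.64% in TGFβ1 replicates 1 and 2 and 1.21% and 2.09% in control replicates 1 and 2. The share among members was 38.1% (95% Wilson interval 20.8 to 59.1) and 47.1% (31.5 to 63.3) in TGFβ1 replicates 1 and 2, against 26.9% (13.7 to 46.1) and 33.3% (18.6 to 52.2) in control replicates 1 and 2. The intervals cover at most counting error, and they treat as independent clusters that are often neighbouring pieces of 1 stretch of RNA. The mean share was 42.6% in TGFβ1 and 30.1% in control libraries, a difference of 12.4 percentage points. No test is given, since these calls chose the genes, and an exact two-sided permutation test of 2 against 2 libraries could not go below p = 0.33. Without TGFβ1 replicate 2 the difference was 7.97 points, and with neighbouring clusters merged it was 6.87 points. The member shares did not overlap between the groups, and the shares over all clusters also did not.

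**Figure D1:**
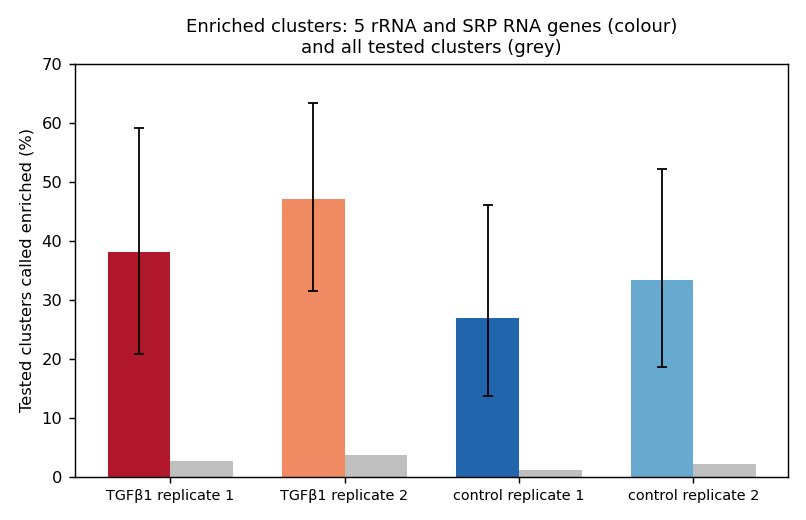
Percentage of tested clusters called enriched in each immunoprecipitated library, for the 5 rRNA and SRP RNA genes (coloured bars, with 95% Wilson intervals) and for all tested clusters (grey bars). The members reach 38.1% and 47.1% in TGFβ1 replicates 1 and 2 and 26.9% and 33.3% in control replicates 1 and 2, and every grey bar lies below 4%.

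Clusters at most 20 nt apart on 1 strand were joined over the 4 libraries into sites, numbered within each gene from the lowest coordinate. The 108 clusters made 28 sites, of which 13 had a cluster in all 4 libraries, 5 in 2 or 3 and 10 in 1. Enrichment was found at 7 sites, all of them among the 13, and 4 sites were enriched in all 4 libraries (4 of 13, against 2.80% of 7716 such sites in the whole data). These 4 were 1 site in each of RN7SL2, RNA28SN1, RNA28SN3 and RNA45SN2. Their positions are described gene by gene, with the strand taken from the clusters, because the gene table used here gives none. The clusters of each gene lay on a single strand.

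RN7SL2 (chromosome 14, 49862551 to 49862849, 299 nt) held 13 clusters, all on the minus strand, of which 10 were enriched. Read along that strand, they formed 1 site in the last part of the 7SL RNA and 1 from position 73 to 119. The one near the 3′ end, RN7SL2 site 1, covered chr14:49862549-49862644, which is position 206 to 301 of the RNA and so runs 2 nt past the annotated end. Its highest log2 fold was 5.01 and 8.03 in TGFβ1 replicates 1 and 2, and 3.90 and 5.64 in control replicates 1 and 2. TGFβ1 replicate 2 stood above the other libraries, and the groups overlapped, since control replicate 2 was above TGFβ1 replicate 1. The mean was 6.52 ± 2.14 in TGFβ1 and 4.77 ± 1.23 in control libraries (SD, n = 2), a difference of 1.75 that is smaller than the spread between the TGFβ1 replicates. Within its library the cluster ranked 202 of 31137 and 34 of 54536 in TGFβ1 replicates 1 and 2, and 368 of 51273 and 114 of 39880 in control replicates 1 and 2. Of the 96 nt of the site, 64 nt were covered in all 4 libraries.

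RN7SL2 site 2 (chr14:49862731-49862777) had a highest log2 fold of 4.26 and 6.25 in TGFβ1 replicates 1 and 2, and 3.25 and 3.65 in control replicates 1 and 2. Here both TGFβ1 libraries lay above both control libraries. The highest clusters were 22 and 18 nt wide in TGFβ1 replicates 1 and 2, and 40 and 16 nt in control replicates 1 and 2. With clusters of at least 20 nt alone, the site had no value in replicate 2 of either condition. Control replicate 1 was past the fold limit but short of the p limit, with a −log10 p of 2.30, and the other 3 libraries were enriched. The TGFβ1 list holds a peak at each RN7SL2 site, with log2 folds of 6.53 and 4.60. The control list holds a peak at site 1 alone, with 5.26. No cluster was tested upstream of site 2 or between the sites in any library. RN7SL2 lies within the bounds of the lncRNA gene LOC105378179, in which no other cluster was tested.

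RN7SL1 (chromosome 14, 49586580 to 49586878, 299 nt) gave the opposite sign in the same stretch of RNA. All of its 7 clusters, which lay on the plus strand, had a log2 fold below 0, meaning depletion in the immunoprecipitate relative to the input. Its 3′ site, RN7SL1 site 2, ran from position 229 to 300 and had −1.82 and −1.19 in TGFβ1 replicates 1 and 2, and −1.93 and −1.61 in control replicates 1 and 2. The groups overlapped, and the means were −1.50 ± 0.45 in TGFβ1 and −1.77 ± 0.23 in control libraries (SD, n = 2). Its 5′ site, from position 5 to 91, was tested in replicate 2 of each condition, at −0.56 with TGFβ1 and −1.23 in control. RN7SL1 lies within the bounds of the ribosomal protein gene RPS29, whose other clusters were all on the minus strand. RN7SL3, the third 7SL gene and not a member, had 1 cluster in TGFβ1 replicate 2 and 2 and 1 in control replicates 1 and 2, all with a log2 fold below 0. The 3 copies thus did not show the same fold, although they encode near-identical RNAs. How reads were placed among copies is not given in the sources used here, and its part in this difference was not tested.

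**Figure D2:**
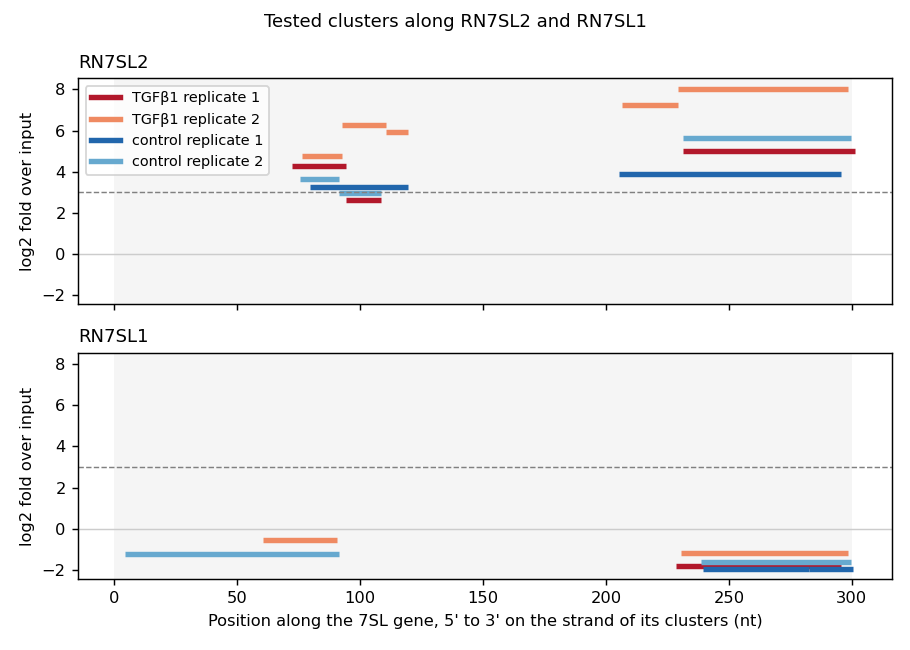
Each bar is a tested cluster, placed by its position along the 7SL gene (nt, 5′ to 3′ on the strand of its clusters) and its log2 fold over input. Clusters of RN7SL2 lie between 2.62 and 8.03, and those of RN7SL1 between −1.93 and −0.56; the dashed line marks the fold limit of 3.

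RNA45SN2 (chromosome 21, 8205988 to 8219302, 13315 nt, plus strand) is 1 annotated copy of the 45S pre-rRNA. Of its 27 clusters, 16 lay in the second internal spacer, with 4 in each library, and 11 in the 28S part. The external spacers, 18S, the first internal spacer and 5.8S of this copy had 0 clusters in all 4 libraries. The 16 spacer clusters made a single site, chr21:8213491-8213574, and 11 of them were enriched. The spacer is 1160 nt long between the annotated ends of 5.8S and 28S, and the site covered its positions 764 to 847, ending 313 nt before 28S. The highest log2 fold in the site was 3.32 and 4.72 in TGFβ1 replicates 1 and 2, and 3.22 and 3.36 in control replicates 1 and 2. TGFβ1 replicate 2 was the highest, while TGFβ1 replicate 1 lay between the control libraries. The means were 4.02 ± 0.99 in TGFβ1 and 3.29 ± 0.10 in control libraries (SD, n = 2), so the difference of 0.73 was smaller than the spread between the TGFβ1 replicates.

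The bounds of the spacer site varied least among the 13 sites. Of its 84 nt, 83 nt were covered in all 4 libraries (98.8%), and the site ended at position 8213574 in each of them. Its highest −log10 p was 20.3 and 47.1 in TGFβ1 replicates 1 and 2, and 11.5 and 14.4 in control replicates 1 and 2. Several of its clusters lay close to the fold limit. In TGFβ1 replicate 1, a spacer cluster at 3.02 was called and its neighbour at 2.97 was not, although the −log10 p was 19.2 and 18.4. In control replicate 1 all 4 spacer clusters were called, the lowest at 3.06, and in control replicate 2 only the one at 3.36. The TGFβ1 list holds 4 peaks in the site and the control list 2. The corresponding spacers of the copies RNA45SN1 and RNA45SN3 had 0 clusters in the 4 libraries.

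**Figure D3:**
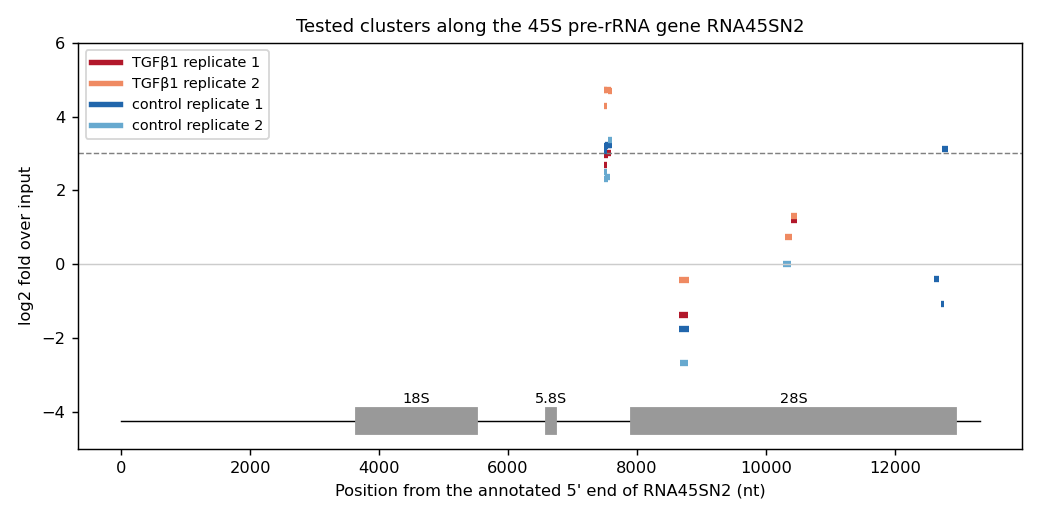
Tested clusters of RNA45SN2 by position from its 5′ end (nt) and log2 fold over input, with the annotated 18S, 5.8S and 28S rRNAs as grey boxes. The clusters past the dashed line at 3 stand in the spacer between 5.8S and 28S, apart from a cluster of control replicate 1 near the 28S end at 3.12 whose −log10 p of 2.10 was short of the limit.

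The 28S part of RNA45SN2, which is the gene RNA28SN2, had 11 clusters and none was enriched. Its site at position 774 to 889 of 28S was tested in all 4 libraries and had log2 folds of −1.38 and −0.43 in TGFβ1 replicates 1 and 2, and −1.75 and −2.66 in control replicates 1 and 2. Both TGFβ1 libraries lay above both control libraries, and all 4 were below 0. Near the 3′ end this copy had clusters in control replicate 1 alone, with −0.40 at 291 to 318 nt before the end and a highest value of 3.12 at 151 to 217 nt before it.

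In the other 28S copies, enrichment gathered near the 3′ end of the rRNA. Over the 3 copies, 19 of 72 clusters in 28S were enriched, and 18 of these 19 lay within the last 339 nt, where 27 of the 72 clusters were. These 339 nt reach to the far edge of an enriched site, site 8 of RNA28SN1, so the stretch was bounded by the enriched clusters themselves. The 18 clusters are pieces of that site and of sites 9 and 10 of RNA28SN3. RNA28SN1 (chromosome 21, 8441146 to 8446211, 5066 nt) had 23 clusters in 8 sites, and all of its 9 enriched clusters belonged to site 8 (chr21:8445872-8445921), 290 to 339 nt before the end of 28S. The highest log2 fold of this site was 5.11 and 6.10 in TGFβ1 replicates 1 and 2, and 4.63 and 5.02 in control replicates 1 and 2. Both TGFβ1 libraries were above both control libraries. The mean was 5.60 ± 0.70 in TGFβ1 and 4.82 ± 0.28 in control libraries (SD, n = 2). The highest clusters were narrow, at 15 and 4 nt in TGFβ1 replicates 1 and 2 and 16 and 4 nt in control replicates 1 and 2. With clusters of at least 20 nt alone, the highest log2 fold in the gene was 3.94 and 4.63 in TGFβ1 replicates 1 and 2, and 2.88 and 3.91 in control replicates 1 and 2.

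RNA28SN1 also had a site tested in all 4 libraries that was not enriched. Site 7, 1119 to 1162 nt before the end of 28S, had 1.62 and 2.53 in TGFβ1 replicates 1 and 2, and 1.38 and 1.43 in control replicates 1 and 2. These exact folds were held by 2492 and 653 clusters in TGFβ1 replicates 1 and 2, and by 1919 and 261 in control replicates 1 and 2. The other 6 sites of RNA28SN1 had a cluster in 1 to 3 libraries and no enriched one. The TGFβ1 list holds 3 peaks of RNA28SN1, with log2 folds of 4.29, 5.60 and 5.60, and the control list 1, with 4.82, all within site 8.

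RNA28SN3 (chromosome 21, 8396926 to 8401980, 5055 nt) had 38 clusters in 10 sites, with 10 enriched. Site 10 (chr21:8401785-8401859), 121 to 195 nt before the end of 28S, had a highest log2 fold of 5.85 and 6.49 in TGFβ1 replicates 1 and 2, and 4.70 and 5.74 in control replicates 1 and 2. It was enriched in all 4 libraries, the groups did not overlap, and 73 of its 75 nt were covered in all of them. The mean was 6.17 ± 0.46 in TGFβ1 and 5.22 ± 0.73 in control libraries (SD, n = 2). The highest cluster was 75 and 6 nt wide in TGFβ1 replicates 1 and 2, and 9 and 63 nt in control replicates 1 and 2. With clusters of at least 20 nt alone, the site had 5.85 and 3.81 in TGFβ1 replicates 1 and 2, and 1.78 and 5.74 in control replicates 1 and 2, so that the groups overlapped.

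Site 9 of RNA28SN3 (chr21:8401687-8401716) lay 264 to 293 nt before the end of 28S. Counted from that end it meets site 8 of RNA28SN1, which spans 290 to 339 nt, with an overlap of a few nucleotides. Its log2 fold was 4.20 and 3.48 in TGFβ1 replicates 1 and 2, and 3.32 and 3.43 in control replicates 1 and 2. Both TGFβ1 libraries lay above both control libraries, and all 4 were past the fold limit. In control replicates 1 and 2 the −log10 p was 2.51 and 2.50, so the site was enriched in the TGFβ1 libraries and missed the p limit in the control libraries. The TGFβ1 list holds it at 3.84. With library medians subtracted the groups overlapped at this site.

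Site 1 of RNA28SN3 (chr21:8397608-8397676), at position 683 to 751 of 28S, was the 1 enriched place away from the 3′ end. Its log2 fold was 2.69 and 2.75 in TGFβ1 replicates 1 and 2, and 2.73 and 4.02 in control replicates 1 and 2. Control replicate 2 stood alone above the limit, and the other 3 libraries lay close together below it. The highest −log10 p of any cluster in the site was 5.65 and 12.0 in TGFβ1 replicates 1 and 2, and 4.20 and 8.34 in control replicates 1 and 2, so the fold alone kept 3 libraries from a call. The control list holds the site at 3.37 and the TGFβ1 list does not hold it.

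**Figure D4:**
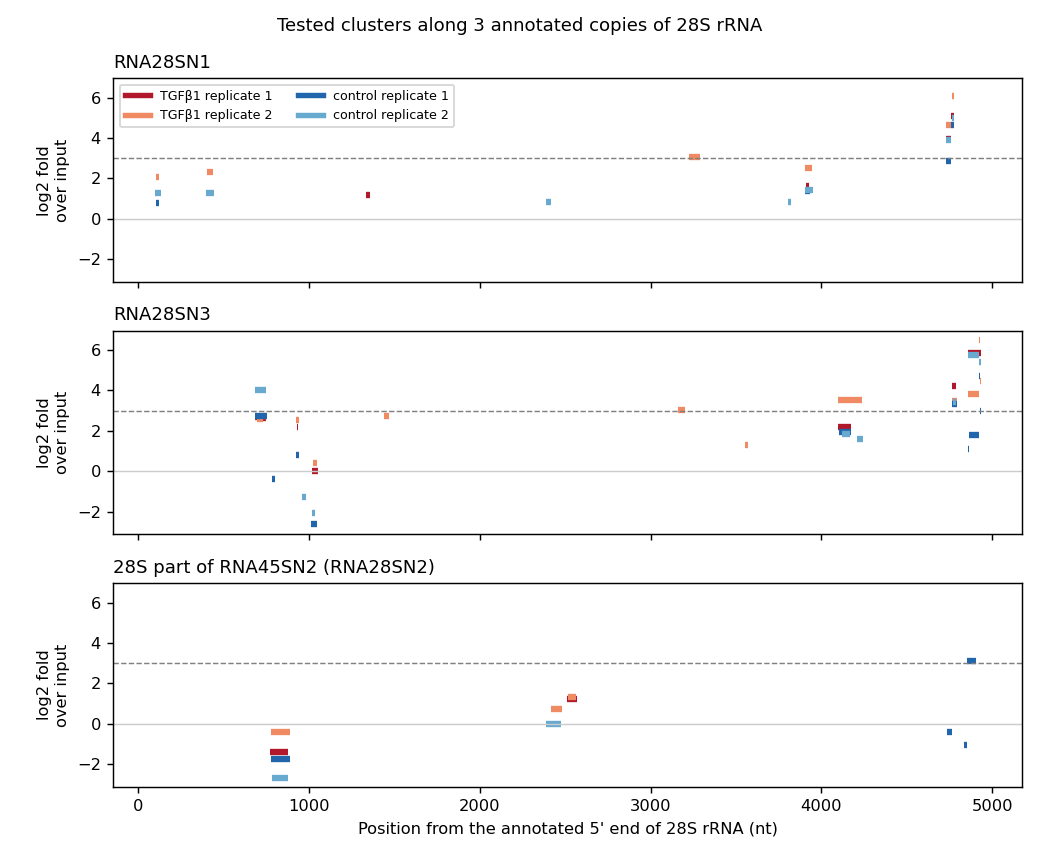
Tested clusters of 3 annotated copies of 28S rRNA by position from the 5′ end of 28S (nt) and log2 fold over input, with the fold limit of 3 dashed. Clusters of RNA28SN1 and RNA28SN3 past the limit stand mainly at the right, within 339 nt of the 3′ end, and those of RNA28SN2 reach no call.

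Over the length of RNA28SN3 the fold changed sign in the control libraries. In TGFβ1 replicate 1 only 1 cluster lay just below 0, and in TGFβ1 replicate 2 none did. Site 4, at position 1015 to 1053, had −0.003 and 0.42 in TGFβ1 replicates 1 and 2, and −2.60 and −2.06 in control replicates 1 and 2. Both control libraries were well below 0 and below both TGFβ1 libraries. Site 3 had 2.20 and 2.53 in TGFβ1 replicates 1 and 2, and 0.79 and −1.28 in control replicates 1 and 2. Its cluster of control replicate 2 did not overlap those of the other libraries, so no nucleotide was covered in all 4. Site 8, at position 4099 to 4243, had 2.20 and 3.53 in TGFβ1 replicates 1 and 2, and 1.96 and 1.85 in control replicates 1 and 2. TGFβ1 replicate 2 was past the fold limit there, with a −log10 p of 2.56. In TGFβ1 replicates 1 and 2 and control replicates 1 and 2, the exact folds of site 8 were held by 618, 93, 441 and 1061 clusters. Those of site 3 were held by 618, 653, 6995 and 3 clusters.

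Over the 13 sites tested in all 4 libraries, the mean log2 fold was higher in TGFβ1 than in control at 12, with a median difference of 0.95. Over all 7716 such sites the median difference was 0.40, and 68.4% were higher in TGFβ1. At 9 of the 13 both TGFβ1 libraries lay above both control libraries, and at 0 the reverse held. Over all such sites these shares were 32.1% and 9.54%. The median log2 fold over all clusters of a library was 0.94 and 0.82 in TGFβ1 replicates 1 and 2, and 0.38 and 0.85 in control replicates 1 and 2, with the lowest in control replicate 1. With each library's median subtracted, a step added after the data were seen, the count of member sites with TGFβ1 above control without overlap was 4 (21.8% of all sites) and with control above TGFβ1 was 1 (15.9%). The 4 were site 2 of RN7SL2 and sites 3, 4 and 10 of RNA28SN3, and the 1 was site 1 of RNA28SN3. Site 3 counts among the 9 and the 4 although no nucleotide of it was covered in all 4 libraries. With medians subtracted, the median difference of the 13 was 0.68, against 0.13 over all sites. With clusters of at least 20 nt alone, also added after the data were seen, 10 member sites had a value in all 4 libraries. TGFβ1 lay above control without overlap at 5 of them (31.7% of all 6880 such sites), and control above TGFβ1 at 0 (9.48%). Sites of 1 gene are not independent, and no test was made of these counts.

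**Figure D5:**
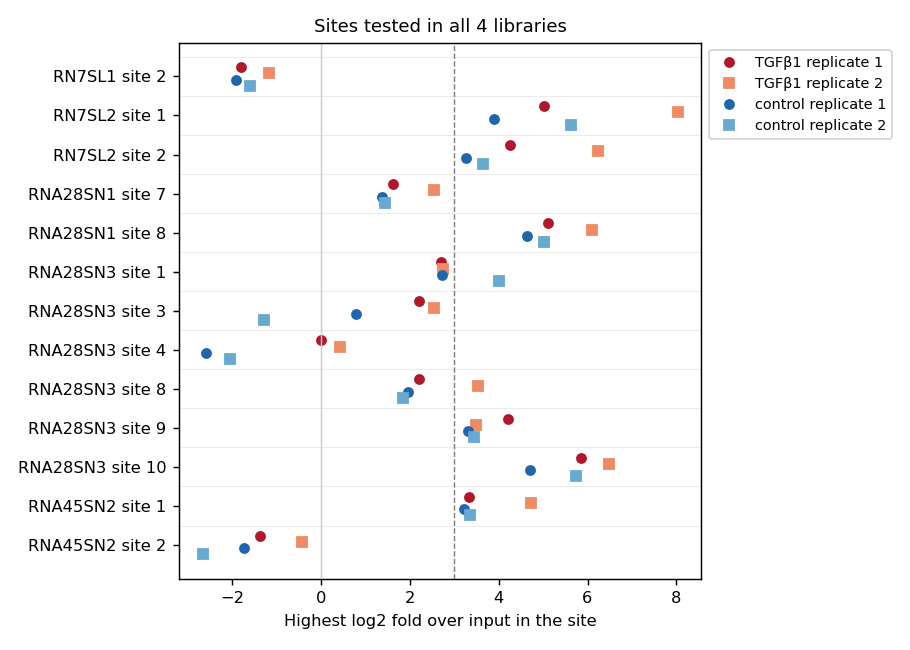
Highest log2 fold over input of each of the 13 sites with a cluster in all 4 libraries, with 1 symbol per library. Sites of RN7SL2, RNA28SN1 site 8, RNA28SN3 site 10 and RNA45SN2 site 1 lie to the right of the dashed limit of 3 in all 4 libraries, as RNA28SN3 site 9 does, and RN7SL1 site 2 and RNA45SN2 site 2 lie below 0.

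The lists made from both replicates held 13 member peaks of 1008 for TGFβ1 and 7 of 627 for control. Once listed peaks at most 20 nt apart were merged, there were 6 in the TGFβ1 list and 6 in the control list. The 2 control peaks of RNA45SN2 site 1 lay further apart and were counted separately. The listed peaks fell in 6 sites for TGFβ1 and 5 sites for control. Of the 13 TGFβ1 peaks, 10 overlapped a control peak (76.9%), and of the 7 control peaks, 6 overlapped a TGFβ1 peak (85.7%). Over all listed peaks these shares were 61.0% of the TGFβ1 list and 79.6% of the control list. The TGFβ1 peaks overlapped an enriched cluster in 11 and 13 cases in TGFβ1 replicates 1 and 2, and in 9 and 10 cases in control replicates 1 and 2. The control peaks did so in 5 and 6 cases in TGFβ1 replicates 1 and 2 and in 6 and 6 in control replicates 1 and 2. Each list was made from the libraries of its own condition, so its overlap with them was largely fixed in advance. The counts therefore do not show how particular a peak is to a condition. No share over all listed peaks is given for these overlaps with libraries. The peaks of the TGFβ1 list without a control peak were RN7SL2 site 2, site 9 of RNA28SN3 and the first part of site 8 of RNA28SN1 (8445873 to 8445902). Control replicate 2 had an enriched cluster at RN7SL2 site 2, at 3.65, and at the part of RNA28SN1 site 8, at 3.91.

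Outside the member genes, no cluster of the other structural RNAs examined was enriched. Of 31 further 45S, 18S, 5.8S, 28S, 5S, 7SL, 7SK, RMRP, RPPH1 and mitochondrial rRNA genes, 8 had a tested cluster outside the member genes. They held 247 such clusters, and 0 were enriched. Clusters already counted in a member gene are left out of these numbers, so RNA28SN2, which lies within RNA45SN2, is not among the 8. Genes that contain or lie within a member can thus hold clusters that are not counted here. RNA5S9, a 5S rRNA gene, had a highest log2 fold of −2.46 and −2.69 in TGFβ1 replicates 1 and 2, and −3.31 and −2.80 in control replicates 1 and 2. RPPH1, the RNA of ribonuclease P, had −3.70 and −3.63 in TGFβ1 replicates 1 and 2, and −4.55 and −4.29 in control replicates 1 and 2. RMRP, the RNA of ribonuclease MRP, and RN7SK, the 7SK RNA that holds back a transcription elongation factor, were also below −2 in all 4 libraries. The mitochondrial 12S rRNA gene RNR1 had its highest log2 fold at −0.15 and 0.45 in TGFβ1 replicates 1 and 2, and 0.70 and −0.14 in control replicates 1 and 2. The mitochondrial 16S rRNA gene RNR2 had its highest log2 fold at −0.49 and −1.26 in TGFβ1 replicates 1 and 2, and −1.49 and −1.18 in control replicates 1 and 2. The 18S gene RNA18SN1 had 2 clusters in TGFβ1 replicate 2 and 2 in control replicate 1, with a highest fold of 3.18 and 0.38 and no call.

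Among the mRNAs of the protein partners, 1 gene of each list was enriched, in TGFβ1 replicate 2. Of 8 genes for SRP proteins and the SRP receptor, 7 and 8 had a tested cluster in TGFβ1 replicates 1 and 2, and 7 and 7 in control replicates 1 and 2. The receptor subunit gene SRPRA was enriched in TGFβ1 replicate 2, at a log2 fold of 3.97, and had 1.43 in TGFβ1 replicate 1 and 1.25 and 2.72 in control replicates 1 and 2. No other gene of this list had an enriched cluster. Of 14 genes for rRNA synthesis and processing, 6 and 10 had a tested cluster in TGFβ1 replicates 1 and 2, and 7 and 8 in control replicates 1 and 2. BOP1, a factor of large subunit assembly, was enriched in TGFβ1 replicate 2, at 3.81, against 2.43 in TGFβ1 replicate 1 and 1.12 and 0.85 in control replicates 1 and 2, and the other 13 genes had no enriched cluster. Among all genes with a cluster, the share with an enriched one was 6.30% and 10.8% in TGFβ1 replicates 1 and 2, and 2.85% and 4.88% in control replicates 1 and 2. For the SRP list, the median of the highest fold per gene was 1.49 and 1.88 in TGFβ1 replicates 1 and 2. In control replicates 1 and 2 it was 0.79 and 0.85. For the rRNA synthesis and processing list, the median was 1.52 and 1.88 in the TGFβ1 libraries and 0.79 and 0.85 in the control libraries. Over all genes it was 1.62 and 1.72 in TGFβ1 replicates 1 and 2, and 0.79 and 1.26 in control replicates 1 and 2.

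Ranked by their highest cluster among the genes of a library, RN7SL2, RNA28SN1 and RNA28SN3 were between percentiles 98.3 and 99.9 in all 4 libraries. RNA45SN2 lay between percentiles 93.4 and 96.6, and RN7SL1 between percentiles 3.14 and 4.71. The order of RN7SL2, RNA28SN1 and RNA28SN3 changed between libraries, with RN7SL2 highest in TGFβ1 replicate 2 and RNA28SN3 highest in the other 3. Of 4626 other genes with a cluster in all 4 libraries, those nearest in rank to RN7SL2 were YWHAE, IPO5 and LBH, at a mean difference of 0.17, 0.24 and 0.34 percentile points over the 4 libraries. For RNA28SN1 these were POLR2L, GCN1 and ERAL1 (0.11, 0.15 and 0.15), and for RNA28SN3 they were PRG4, CCDC85B and CELF1 (0.14, 0.14 and 0.15). For RNA45SN2 they were ZDBF2, SHC1 and MCRIP1 (0.53, 0.54 and 0.69). For RN7SL1 they were RNU5E-1, RNU4ATAC and MTRNR2L6 (0.26, 0.48 and 0.66), the first 2 of which are genes of spliceosomal small nuclear RNAs.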

How the data were processed

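The authors deposited 1 peak list per immunoprecipitated library and 1 list per condition made from both replicates. Reads had been handled with cutadapt, STAR and UMI-tools on GRCh38, per the submitters' processing notes. The sources used here do not name the peak caller or say how reads from repeated genes were treated. As the lists are without a header, the columns were read from their values: 1 deposited column was read as the log2 fold over size-matched input and the other as the −log10 p-value, capped at 400. Where a listed peak had the same bounds in both libraries (35 TGFβ1 and 26 control peaks), its fold was their mean and its −log10 p the smaller, within 0.01, in all cases. The lists hold no counts, so read depth is unknown; tested clusters numbered 31137, 54536, 51273 and 39880 in TGFβ1 replicates 1 and 2 and control replicates 1 and 2.

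The RefSeq annotation of GRCh38.p14 (59792 genes, no strand) gave the gene bounds. Its bounds of rRNA copies on unplaced scaffolds were not used. Coordinates are 1-based. Named genes were all members, related RNA genes with a cluster, enriched genes of 2 pathway lists and the 3 genes nearest each member in rank. Members and lists were chosen with earlier results of these data known. Peaks overlapped where they shared 1 nt or more and the strand. The planned permutation test of enriched shares is not reported, since enrichment chose the members. Functions were tested on simulated data. Work was done in Python 3.11.15 with SciPy 1.17.1, pandas 2.3.3 and NumPy 2.4.6, and plots in matplotlib 3.10.9.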

Additional observations from a re-analysis of the deposited data

How the results depend on the processing

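The enriched share of member clusters was higher in TGFβ1 under the other limits, assignments and merging tried, with differences of 6.87 to 18.9 percentage points. Shares over all clusters are not given for these settings, so neither these differences nor the counts below have a background beside them. It ranged from 7.97 to 16.9 points when 1 library was left out. With the replicate number as a block, the difference was also 12.4 points; same-numbered libraries deviated together with a correlation of 0.07 over 7716 sites, and the labels tie the number to nothing. The SRP RNA genes alone gave 28.2 points and the rRNA genes alone 8.47. The SRP value rests on 2 of 4 and 5 of 7 clusters in TGFβ1 replicates 1 and 2, and 1 of 4 and 2 of 5 in control replicates 1 and 2. The Wilson intervals of these shares reached from 4.56 to 91.8%, and all the enriched clusters were pieces of the 2 sites of RN7SL2. Counts of enriched clusters mostly fell with stricter limits. At a log2 fold limit of 4 they were 5 and 14 in TGFβ1 replicates 1 and 2, and 2 and 6 in control replicates 1 and 2. At a −log10 p limit of 5 they were 5 and 15 in TGFβ1 replicates 1 and 2, and 7 and 7 in control replicates 1 and 2. Merged to sites, they were 6 and 6 in TGFβ1 replicates 1 and 2, and 4 and 6 in control replicates 1 and 2. Merged, the TGFβ1 and control lists had 6 peaks each in place of 13 and 7, and at a fold limit of 4 they had 9 and 3. Of 2 alternatives chosen after seeing the data, subtracting library medians left 4 member sites higher in TGFβ1 without overlap in place of 9, and using clusters of at least 20 nt alone left 5. With such clusters the highest log2 fold of RNA28SN3 was 3.81 in TGFβ1 replicate 2, and 3.32 in control replicate 1. Why these counts moved beyond the tighter limit or merging itself was not tested. Read depth is unknown, so the number of reads behind a cluster cannot be given. In TGFβ1 replicates 1 and 2 and control replicates 1 and 2, 16 of 21, 25 of 34, 21 of 26 and 22 of 27 member clusters shared their exact fold with another cluster. The share over all clusters is not given. In the same order, the most widely shared folds of member clusters were 1.20, 1.31, 0.79 and 0.85. They were held by 6105, 8378, 6995 and 10002 clusters.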

Other observations

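Pseudogene copies of the same RNAs were sparsely tested and held no enriched cluster. Of 684 7SL pseudogenes, 6 and 9 had a cluster in TGFβ1 replicates 1 and 2, and 6 and 4 in control replicates 1 and 2, with a highest log2 fold of 2.89 in RN7SL396P of TGFβ1 replicate 2. Of 510 5S pseudogenes, 28 and 38 had a cluster in TGFβ1 replicates 1 and 2, and 26 and 29 in control replicates 1 and 2, and the highest log2 fold was 2.62 in RNA5SP387 of TGFβ1 replicate 1. The 14 pseudogenes of 28S, 18S and 5.8S rRNA had 0 clusters in all 4 libraries.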
